A study of Drosophila melanogaster with 36 samples.

Results

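UDP-glucuronosyltransferases (UGTs) are membrane enzymes of the endoplasmic reticulum that join a sugar to small lipophilic molecules, which makes these easier to excrete. In insects the sugar is usually glucose, taken from UDP-glucose, and the substrates include plant toxins, insecticides, pigments and odorants. UGTs belong to the conjugation step of detoxification, after oxidation by cytochrome P450s and beside conjugation to glutathione, and fly UGT genes often lie in tandem groups. The genes described here are all those whose current symbol starts with Ugt followed by a digit. They numbered 35 of the 11982 genes with a probe set of their own on the array, and they were all 35 such genes of the RefSeq annotation used (Release 6 assembly). Each was read by 1 probe set that named no other gene.

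RNA came from whole adult male Drosophila melanogaster, in pools of 40 flies per array, on 36 Affymetrix arrays in 12 groups of 3. The Gal4-UAS system drove the transgene in motoneurons (MN, D42-Gal4), in glia (M1B-Gal4) or in both (MN+glia, D42-Gal4 with M1B-Gal4). The transgene was either mutant human SOD1 (G85R, a form linked to amyotrophic lateral sclerosis) or, as the control, wild-type Drosophila SOD1 (dSOD1), and flies were 5 (5d) or 45 (45d) days old. All flies were males kept on cornmeal food at 25C and all carried a Gal4 driver and a SOD1 transgene, so the controls also carried extra SOD1. Each transgene came from its own UAS stock, and an effect of G85R and one of the stock that carries it cannot be told apart. Likewise, the crosses with the 3 drivers differ in both the expressing cells and the driver stocks. In whole-fly RNA, fewer cells of a type and less RNA per cell cannot be told apart, and the tissue in which a UGT changed was not measured. The labels call the 3 pools of each group biological replicates. Whole-fly RNA held markers of gut, tubule, fat body, antenna, male glands, nervous system and muscle, and the female yolk protein genes Yp1 and Yp2 were dim, with means of 4.83 and 4.71 on the log2 scale.

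Values are the deposited log2 levels, and differences are log2 differences between group means, G85R minus dSOD1 unless stated, with the standard error (SE) and the Benjamini-Hochberg adjusted p of limma over all 18769 fly probe sets. A gene is said to rise or fall where the adjusted p was at most 0.05. Array medians lay between 6.413 and 6.555, and replicates of a group correlated with r of 0.99177 to 0.99882. RNA on the second array of MN+glia G85R flies at 5d was degraded: its 3' actin signal exceeded the 5' signal by 5.72 on the log2 scale, against 2.39 to 3.25 on the other 35 arrays. The main counts and differences that use this array are also given without it. Precision is limited by the 3 arrays per group, and the SE of a G85R difference was 0.0866 in the median over members and comparisons, with a range of 0.0557 to 0.136.

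Levels of UGT transcripts spanned much of the range of the array. The mean over all arrays was highest for Ugt35B1 (10.22), Ugt37D1 (10.00) and Ugt302C1 (9.91). It was lowest for Ugt49B2 (3.75), Ugt35D1 (3.76) and Ugt37E1 (3.94). Ugt35B1 is known as a gene with strong expression in the antenna. The median of all values was 6.48, and 20 UGT genes had a mean above it and 15 below. Levels of different probe sets are not on a scale per length, so this order ranks signals and not transcripts. Of the 10 genes with a mean under 5, only Ugt35E2 passed the test in a G85R comparison, against 19 of the 25 genes at or above that level. The widest ranges of group means belonged to Ugt49B1, from 7.69 to 10.80, Ugt36E1, from 5.58 to 8.26, and Ugt35C1, from 7.99 to 10.32.

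**Figure D1:**
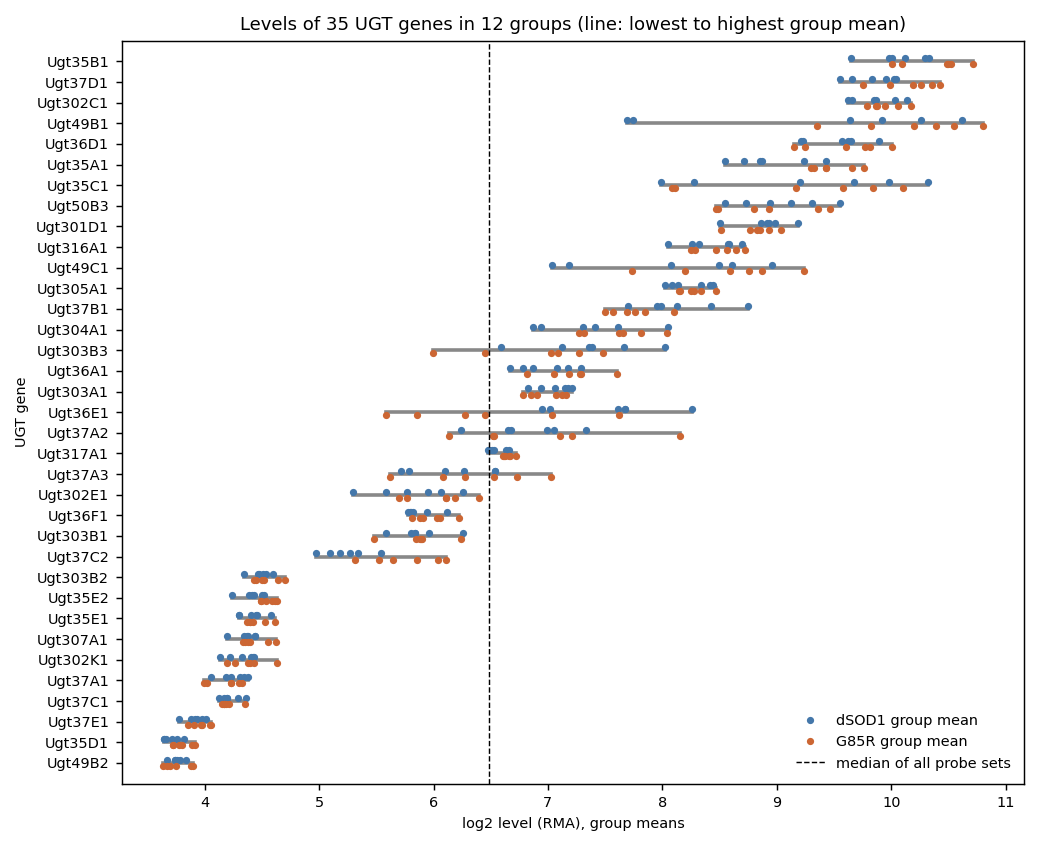
Group means (log2 level, horizontal axis) of the 35 UGT genes, ordered by mean over all arrays; each point is the mean of 3 arrays, blue for dSOD1 and orange for G85R groups, the grey line joins the lowest and highest group mean and the dashed line is the median of all values. Ugt49B1, Ugt36E1 and Ugt35C1 have the longest lines, and the genes under a level of 5 have short lines.

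By the annotation 17 of the genes lie on chromosome arm 3R, 11 on 2L, 5 on 2R and 2 on 3L. In the order of annotated genes, 22 of them stand directly next to another UGT gene and 13 stand alone. The longest run, on 3R, holds 6 genes in the order Ugt35E1, Ugt35E2, Ugt35B1, Ugt35A1, Ugt304A1 and Ugt303A1. Runs of 3 hold Ugt36F1, Ugt36D1 and Ugt36E1 (2L), Ugt37C2, Ugt37E1 and Ugt37D1 (2L), Ugt302K1, Ugt302E1 and Ugt302C1 (3R), and Ugt303B3, Ugt303B1 and Ugt303B2 (3R). Ugt49B1 and Ugt49C1 (2R) and Ugt37A2 and Ugt37A3 (3R) are pairs.

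In each of the 6 comparisons of G85R with dSOD1 flies, between 9 and 13 of the 35 UGT genes passed the test. In MN at 5d 7 rose and 3 fell (28.6%), where 7.99% of all fly probe sets passed, 4.35% upward and 3.64% downward. At 45d in MN the counts were again 7 and 3 (28.6%, against 10% of all probe sets, 5.18% upward and 4.84% downward). In glia at 5d 5 rose and 4 fell (25.7%, against 5.63%, 2.7% and 2.93%), and at 45d 7 rose and 3 fell (28.6%, against 9.97%, 4.89% and 5.09%). In MN+glia at 5d 11 rose and 2 fell (37.1%, against 13.9%, 6.05% and 7.82%), or 7 and 3 without the degraded array (28.6%, against 6.51%). At 45d in MN+glia 7 rose and 3 fell (28.6%, against 7.03%, 3.02% and 4.01%). The share of UGT genes that passed was above that of all probe sets in all 6 comparisons. The median difference of the 35 genes ran from 0.0321 to 0.102 (0.0387 in place of 0.088 in MN+glia at 5d without the degraded array), with between 20 and 25 genes above 0. The median of all genes lay between -0.0125 and 0.00926.

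**Figure D2:**
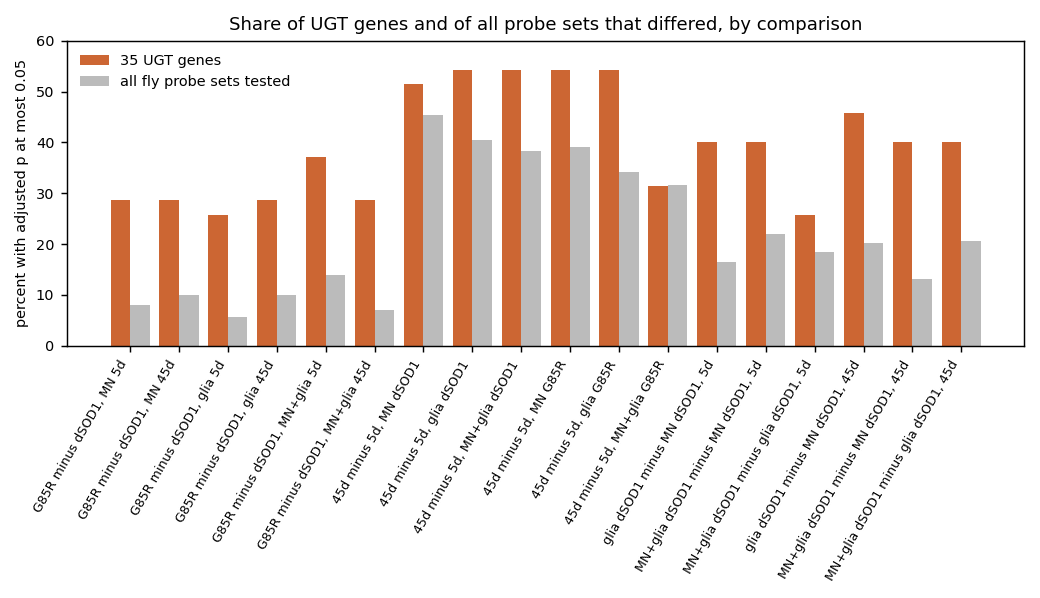
Percent of the 35 UGT genes (orange) and of all fly probe sets tested (grey) with an adjusted p of at most 0.05 (vertical axis), for the 6 comparisons of transgene, the 6 of age and the 6 of driver crosses (horizontal axis), all arrays. The orange bars stand between 25.7 and 37.1 in the transgene comparisons, above the grey bars of 5.63 to 13.9.

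The 6 comparisons use separate arrays, though they share fly stocks. Of the 35 genes 20 passed in at least 1 of them (57.1%, against 28.7% of all probe sets), and 9 passed in the same direction in at least 4 (25.7%, against 3.61%). Ugt35A1 rose in all 6 and Ugt36E1 fell in all 6 (5.71% of the genes, against 1.2% of probe sets). Ugt49B1, Ugt49C1 and Ugt37C2 rose in 5, Ugt35B1 and Ugt37D1 in 4, while Ugt303B3 fell in 5 and Ugt37B1 in 4. Without the degraded array 17 genes passed in at least 1 comparison (48.6%, against 23.4% of all probe sets), since Ugt302C1, Ugt317A1 and Ugt36D1 passed only with it. The same 9 genes then passed in at least 4 (against 3.43% of probe sets), and the same 2 in all 6 (against 1.19%). Among the 20 genes that passed anywhere, 14 passed only as rises (70%, against 45.2% of the probe sets that passed anywhere), 4 only as falls (20%, against 50.2%) and 2, Ugt37A2 and Ugt37A3, in both directions (10%, against 4.54%). Of the 17 genes that passed without that array, 11 passed only as rises (64.7%, against 48.9%), 4 only as falls (23.5%, against 48.3%) and 2 in both (11.8%, against 2.82%).

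Markers of several tissues also differed between G85R and dSOD1 flies. Of 8 midgut genes 4 were higher in MN+glia at 5d (50%, against 13.9% of all probe sets). Without the degraded array 2 were higher (25%, against 6.51%). In MN at 5d 3 were higher (37.5%, against 7.99%), and in MN+glia at 45d 2 were higher and 2 lower (50%, against 7.03%). The log2 of their summed level was 16.03 to 16.07 in dSOD1 and 16.13 to 16.2 in G85R flies in MN at 5d, and 15.94 to 15.96 and 16.05 to 16.08 in MN+glia at 5d. At 45d in MN+glia it was 16.03 to 16.06 in dSOD1 and 15.89 to 15.97 in G85R flies. Of 6 Malpighian tubule genes between 2 and 3 passed per comparison (33.3% to 50%, against 5.63% to 13.9% of all probe sets). In MN+glia at 5d 1 passed without the degraded array (16.7%, against 6.51%). In both MN and glia at 45d 1 was higher and 2 were lower (50% each, against 10% and 9.97%). Of 8 testis genes 4 were higher in MN at 45d (50%, against 10%), where their sum was 13.32 to 13.47 in dSOD1 and 13.58 to 13.67 in G85R flies. At most 1 passed in any other comparison (12.5%, against 5.63% to 13.9% of all probe sets). Of 4 accessory gland genes 2 were lower in MN and 2 in glia at 45d (50% each, against 10% and 9.97%). Their sums in dSOD1 and G85R flies were 13.9 to 13.96 against 13.53 to 13.62 in MN and 13.87 to 13.92 against 13.67 to 13.78 in glia. Of 6 glia markers 3 passed in glia and 3 in MN+glia at 45d, 2 higher and 1 lower in each (50% each, against 9.97% and 7.03%). Of 4 muscle markers 2 were higher in glia at 45d, where 9.97% of all probe sets passed. At most 2 of 7 fat body markers passed in any comparison, both lower in MN+glia at 45d (28.6%, against 7.03% of all probe sets). At most 1 of 6 neuron markers passed, 1 that was higher in MN at 5d (16.7%, against 7.99%). The fat body markers Yp1, Yp2 and Fbp1 were dim, with means of 4.83, 4.71 and 4.87, as was the neuron marker VGlut, at 4.38. Low counts on these 2 lists therefore do not show that the tissues stayed the same. The part of these tissue differences in the UGT results was not tested.

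**Figure D3:**
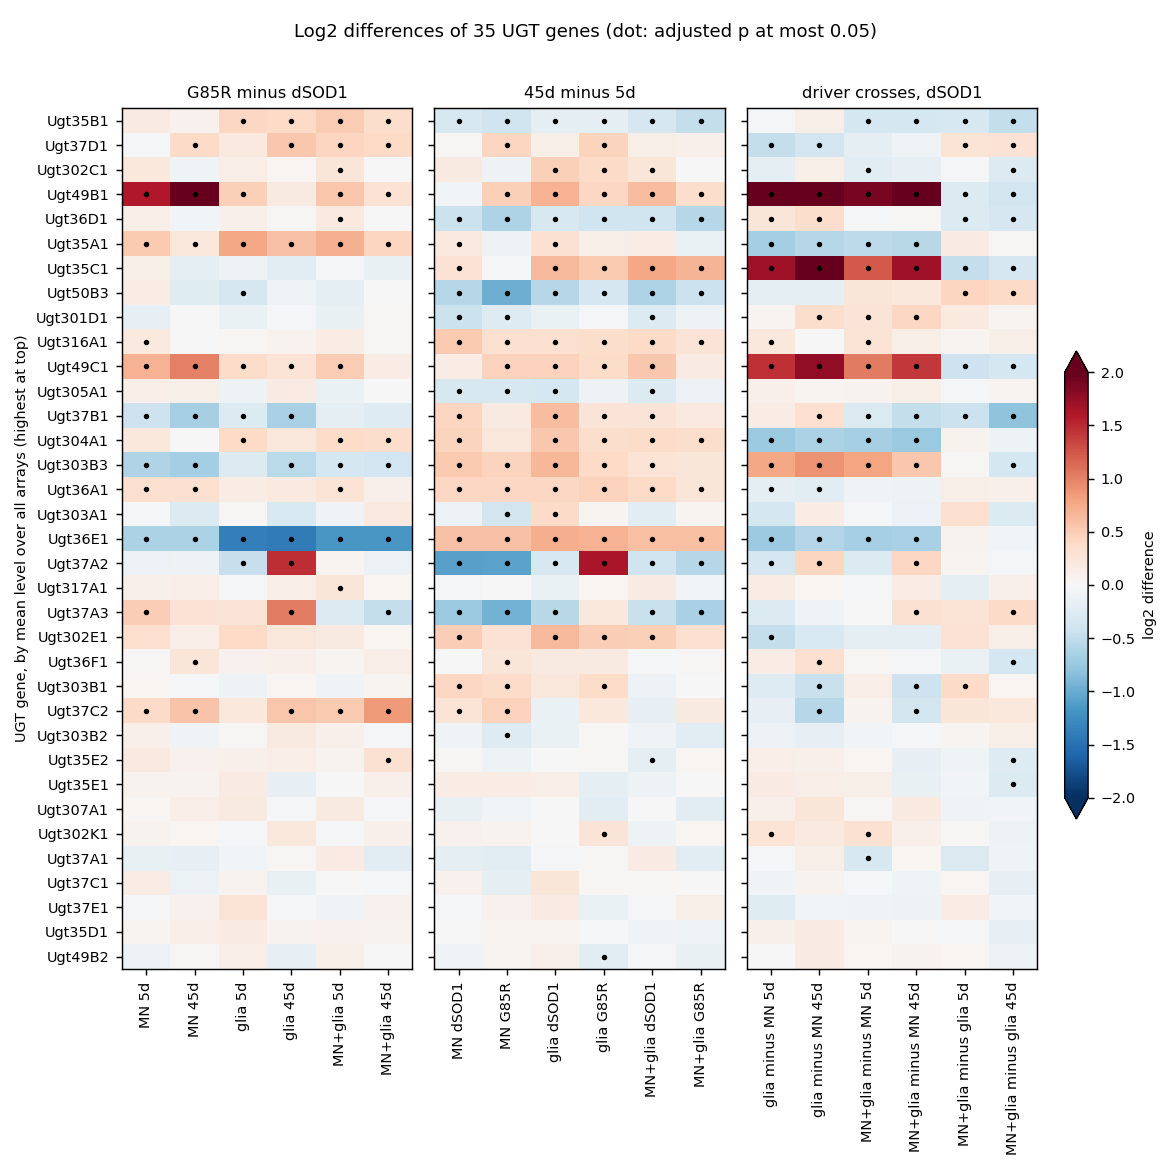
Log2 differences of the 35 UGT genes (rows, highest mean level at the top) in the comparisons of transgene (left), age (middle) and driver cross in dSOD1 flies (right); colour gives the difference, saturated beyond 2 either way, and a dot marks an adjusted p of at most 0.05. Ugt36E1 is blue and Ugt35A1 red across the left panel, and Ugt49B1, Ugt35C1 and Ugt49C1 are the darkest red rows of the first 4 columns on the right.

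Ugt36E1, which in flies is known from olfactory neurons and pheromone discrimination, had the largest fall of any UGT gene in 5 of the 6 comparisons. In glia at 5d its levels were 6.91, 6.94 and 7.00 in dSOD1 flies and 5.52, 5.65 and 5.58 in G85R flies. The groups were far apart, and the difference was -1.36 (limma adjusted p of 5.9e-13, SE 0.087), a 2.57-fold fall. At 45d in glia the levels were 7.73, 7.68 and 7.60 against 6.23, 6.41 and 6.18, a difference of -1.40 (adjusted p of 2.4e-13, SE 0.087). Every dSOD1 array again lay above every G85R array. In MN+glia at 5d the dSOD1 arrays stood at 6.93, 6.99 and 7.13 and the G85R arrays at 5.70, 6.12 and 5.74, where the second, degraded array was the highest. The difference was -1.16 (adjusted p of 3.1e-11, SE 0.087), or -1.29 (adjusted p of 8.2e-13, SE 0.081) without that array. At 45d it was -1.16 (adjusted p of 2.0e-11, SE 0.087), from 7.61 ± 0.068 to 6.45 ± 0.16 (mean ± SD, n = 3 arrays in each group).

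With G85R in MN the fall of Ugt36E1 was smaller. Levels went from 7.74, 7.53 and 7.76 to 7.07, 7.02 and 7.02 at 5d, a difference of -0.64 (adjusted p of 5.4e-06, SE 0.087), and the groups did not overlap. At 45d the difference was -0.64 (adjusted p of 4.0e-06, SE 0.087). The test of the difference between drivers gave 0.73 (adjusted p of 0.0014, SE 0.12) for MN minus glia at 5d and 0.76 (adjusted p of 3.3e-04, SE 0.12) at 45d, so the fall in MN was smaller than the fall in glia at both ages. MN+glia minus MN was -0.52 (adjusted p of 0.026) at 5d, -0.66 (adjusted p of 0.0011) without the degraded array, and -0.52 (adjusted p of 0.020) at 45d. The 5d call was lost without MN G85R replicate 1 or MN+glia dSOD1 replicate 3 (-0.51 to -0.47), and the 45d call without any of 7 of the 12 arrays (-0.52 to -0.45, adjusted p over all alternatives 0.0020 to 0.086). MN+glia and glia did not differ past the threshold, with or without the degraded array. Of the direct neighbours of Ugt36E1, Ugt36D1 rose by 0.19 in MN+glia at 5d only with the degraded array included (adjusted p of 0.20 without it), and Ugt36F1 rose by 0.25 (adjusted p of 0.048) in MN at 45d, a call lost without replicate 1 or 2 of either group (0.20 to 0.25). Neither fell in any of the 6 comparisons. The probe set of Ugt36E1 matches several transcripts by the array's design, as do those of Ugt37D1 and Ugt50B3. Antenna markers (Orco, lush, Obp83b, Obp19d and Obp28a) had at most 1 of 5 genes past the test in any of the 6 comparisons, 1 that was higher in MN at 5d (20%, against 7.99% of all probe sets). The log2 of their summed level lay between 13.15 and 13.47 on all arrays. This sum is taken over linear levels, so Obp19d (mean 12.88) outweighs Orco (mean 5.98). A change in Orco alone would hardly show in it.

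Ugt49B1 had the largest rise of any UGT gene, and only with G85R in MN was it over 2-fold. At 5d its levels in MN were 7.72, 7.72 and 7.78 in dSOD1 flies and 9.40, 9.45 and 9.19 in G85R flies, a difference of 1.61 (limma adjusted p of 6.3e-16, SE 0.077). At 45d they were 7.62, 7.75 and 7.69 against 9.83, 9.86 and 9.78, a difference of 2.13 (adjusted p of 3.5e-19, SE 0.077) or 4.39-fold. The groups were widely separated at both ages. The rise was larger at 45d than at 5d by 0.53 (adjusted p of 0.0071, SE 0.11).

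Under the other drivers Ugt49B1 started higher and rose less. In glia at 5d levels went from 9.98, 9.92 and 9.87 to 10.42, 10.42 and 10.34, a difference of 0.47 (adjusted p of 7.7e-05, SE 0.077). At 45d in glia they were 10.54, 10.56 and 10.75 and 10.77, 10.81 and 10.84, and the difference of 0.19 (adjusted p of 0.14, SE 0.077) did not pass although the groups did not overlap. In MN+glia it was 0.56 (adjusted p of 5.7e-06, SE 0.077) at 5d, or 0.48 (adjusted p of 1.5e-04, SE 0.081) without the degraded array, and 0.29 (adjusted p of 0.014, SE 0.077) at 45d, which was lost without dSOD1 replicate 2 or G85R replicate 1 (0.24 to 0.27). The rise in MN exceeded that in glia by 1.13 (adjusted p of 4.3e-08, SE 0.11) at 5d and by 1.95 (adjusted p of 6.3e-14, SE 0.11) at 45d. MN+glia minus MN was -1.05 (adjusted p of 1.9e-07) at 5d, -1.12 (adjusted p of 6.5e-08) without the degraded array, and -1.84 (adjusted p of 2.1e-13) at 45d. The MN dSOD1 flies stood lowest of all groups at both ages, and the MN G85R flies at 45d, at 9.82 ± 0.043, lay under the glia dSOD1 flies at 5d, at 9.92 ± 0.055.

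Ugt49C1, the neighbour of Ugt49B1 on 2R, was likewise lowest in MN dSOD1 flies, with smaller steps between groups. In MN it went from 6.99, 6.97 and 7.15 to 7.70, 7.79 and 7.72 at 5d, a rise of 0.70 (adjusted p of 8.4e-07, SE 0.086). At 45d it went from 6.91, 7.29 and 7.36 to 8.31, 8.18 and 8.12, a rise of 1.01 (adjusted p of 3.6e-10, SE 0.086). Neither pair of groups overlapped. In glia it rose by 0.37 (adjusted p of 0.0053, SE 0.086) at 5d and by 0.27 (adjusted p of 0.037, SE 0.086) at 45d. The latter call was lost without any single array of its 6 other than glia dSOD1 45d replicate 3 (adjusted p over all alternatives 3.2e-04 to 0.17). In MN+glia it rose by 0.51 (adjusted p of 9.9e-05, SE 0.086) at 5d, or 0.42 without the degraded array, and at 45d the difference was 0.15 (adjusted p of 0.41, SE 0.086) with overlapping groups. Between drivers the difference passed at 45d, by 0.74 (adjusted p of 3.3e-04) for MN minus glia and -0.87 (adjusted p of 2.9e-05) for MN+glia minus MN, and not at 5d, with or without the degraded array. Close paralogs can share probes, and the cross-hybridisation of the 2 genes was not tested.

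Ugt35A1, the fourth gene of the run of 6 on 3R, rose in every comparison. In glia at 5d its levels were 8.52, 8.53 and 8.60 in dSOD1 flies and 9.31, 9.36 and 9.30 in G85R flies, a rise of 0.77 (limma adjusted p of 2.2e-09, SE 0.071). At 45d they were 8.87, 8.79 and 8.89 against 9.43, 9.42 and 9.45, a rise of 0.58 (adjusted p of 4.3e-07, SE 0.071). The groups stood clear of each other. In MN+glia the rise was 0.71 (adjusted p of 1.3e-08, SE 0.071) at 5d, or 0.64 without the degraded array, and 0.43 (adjusted p of 7.3e-05, SE 0.071) at 45d. In MN it was 0.53 (adjusted p of 4.1e-06, SE 0.071) at 5d and 0.23 (adjusted p of 0.033, SE 0.071) at 45d, where the levels were 9.36, 9.42 and 9.49 and 9.68, 9.74 and 9.54. That last call was the weakest of the 6 and was lost without replicate 1 or 2 of either group (differences of 0.19 to 0.23, adjusted p over all alternatives 6.6e-04 to 0.17).

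Its neighbours in the run behaved in different ways. Ugt35B1 rose by 0.42 (adjusted p of 5.7e-06, SE 0.057) in glia at 5d, where levels went from 10.34, 10.28 and 10.26 to 10.76, 10.71 and 10.67. It rose by 0.40 (adjusted p of 7.1e-06, SE 0.057) at 45d in glia, and in MN+glia by 0.51 (adjusted p of 1.9e-07, SE 0.057) at 5d (0.43 without the degraded array) and 0.35 (adjusted p of 6.4e-05, SE 0.057) at 45d. In MN the differences of 0.17 (adjusted p of 0.073) at 5d and 0.09 (adjusted p of 0.43) at 45d did not pass. At 45d the difference in MN minus that in glia was -0.31 (adjusted p of 0.041, SE 0.081), a call lost without any of 10 of the 12 arrays (-0.34 to -0.27, adjusted p over all alternatives 0.0015 to 0.16). Ugt304A1 rose by 0.40 (adjusted p of 0.0085) in glia at 5d, 0.37 (adjusted p of 0.0092) in MN+glia at 5d, 0.45 (adjusted p of 0.0058) without the degraded array, and 0.35 (adjusted p of 0.018) in MN+glia at 45d. The 5d call of MN+glia was lost without replicate 1 of either group (0.28 to 0.29), and the 45d call without dSOD1 replicate 2 or G85R replicate 1 or 2 (0.28 to 0.34). Ugt35E2, a dim gene and the second of the run, rose by 0.30 (adjusted p of 0.011) in MN+glia at 45d, a call lost without replicate 3 of either group (0.26 to 0.28). Ugt35E1 and Ugt303A1 passed in none of the 6. Ugt35B1, Ugt35A1 and Ugt304A1, which lie side by side, rose in at least 3 comparisons each and the other 3 genes of the run in at most 1. Of those other 3, Ugt35E1 and Ugt35E2 had means of 4.44 and 4.49, near the floor of the array, where a difference is hard to detect.

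Ugt37C2 and Ugt37D1 flank the dim Ugt37E1 on 2L and both rose in most comparisons. Ugt37C2 had its largest rise in MN+glia at 45d, from 5.22, 5.25 and 5.08 to 5.89, 6.12 and 6.11, a difference of 0.86 (limma adjusted p of 1.5e-07, SE 0.097) between groups that did not overlap. At 5d in MN+glia it rose by 0.52 (adjusted p of 4.3e-04, SE 0.097), or 0.57 without the degraded array. In MN it rose by 0.38 (adjusted p of 0.013, SE 0.097) at 5d, a call lost without dSOD1 replicate 3 or G85R replicate 2 or 3 (0.32 to 0.36), and by 0.56 (adjusted p of 1.4e-04, SE 0.097) at 45d, and in glia by 0.55 (adjusted p of 1.7e-04, SE 0.097) at 45d. In glia at 5d the difference of 0.21 (adjusted p of 0.26) did not pass, with overlapping groups and a wide spread among the dSOD1 arrays (5.14, 5.34 and 4.82).

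Ugt37D1, among the brightest UGT genes, rose at 45d under every driver. In MN at 45d its levels were 10.08, 10.04 and 10.02 in dSOD1 flies and 10.42, 10.42 and 10.43 in G85R flies, a rise of 0.38 (adjusted p of 3.6e-04, SE 0.071). In glia at 45d the rise was 0.53 (adjusted p of 2.1e-06, SE 0.071) and in MN+glia 0.41 (adjusted p of 1.8e-04, SE 0.071). At 5d it rose in MN+glia by 0.43 (adjusted p of 8.6e-05, SE 0.071) (0.33 without the degraded array, and 0.43 (adjusted p of 0.095) in a fit on these 6 arrays alone) and did not pass in MN, at -0.03 (adjusted p of 0.84), or in glia, at 0.20 (adjusted p of 0.096). In MN the difference changed with age by 0.41 (adjusted p of 0.029, SE 0.10), lost without any of 7 of the 12 arrays (values of 0.35 to 0.41, adjusted p over all alternatives 0.0031 to 0.11). At 5d MN+glia exceeded MN by 0.46 (adjusted p of 0.016, SE 0.10), or 0.37 (adjusted p of 0.048) without the degraded array, a call lost without MN replicate 1 of either transgene (0.40 to 0.40). Ugt37E1, between the 2 genes, had a mean of 3.94 and passed in no comparison of transgene or age.

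Ugt303B3 and Ugt37B1 fell in most comparisons. Ugt303B3, at the start of its run on 3R, went in MN at 45d from 7.03, 7.05 and 7.27 to 6.57, 6.56 and 6.21, a difference of -0.67 (adjusted p of 2.7e-05, SE 0.10) between groups that did not overlap. The differences were -0.60 (adjusted p of 2.1e-04, SE 0.10) in MN at 5d, -0.54 (adjusted p of 5.1e-04, SE 0.10) in glia at 45d and -0.39 (adjusted p of 0.016, SE 0.10) in MN+glia at 45d, which was lost without replicate 3 of either group (-0.34 to -0.32). In MN+glia at 5d it was -0.36 (adjusted p of 0.021, SE 0.10), or -0.43 (adjusted p of 0.018, SE 0.11) without the degraded array, and the call was lost without replicate 3 of either group (-0.29 to -0.28). At 5d in glia it was -0.27 (adjusted p of 0.14), not past the threshold, though every G85R array lay below every dSOD1 array. The other genes of that run, Ugt303B1 and Ugt303B2, passed in none of the 6.

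Ugt37B1 stands alone on 2L. At 45d it went from 8.51, 8.33 and 8.43 to 7.77, 7.71 and 7.80 in MN, a difference of -0.66 (adjusted p of 1.8e-06, SE 0.086). In glia at 45d it went from 8.78, 8.74 and 8.73 to 8.21, 8.03 and 8.07, a difference of -0.65 (adjusted p of 2.0e-06, SE 0.086). Groups did not overlap under either driver. At 5d it was -0.42 (adjusted p of 0.0016, SE 0.086) in MN, a call lost in a fit on these 6 arrays alone (adjusted p of 0.063), and -0.28 (adjusted p of 0.0497, SE 0.086) in glia, the latter at the edge of the threshold and lost when any 1 of the 6 arrays was left out (differences of -0.31 to -0.26, adjusted p over all alternatives 0.0099 to 0.17). In MN+glia the differences of -0.20 (adjusted p of 0.11) at 5d, -0.26 (adjusted p of 0.11) without the degraded array, and -0.26 (adjusted p of 0.062) at 45d did not pass.

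**Figure D4:**
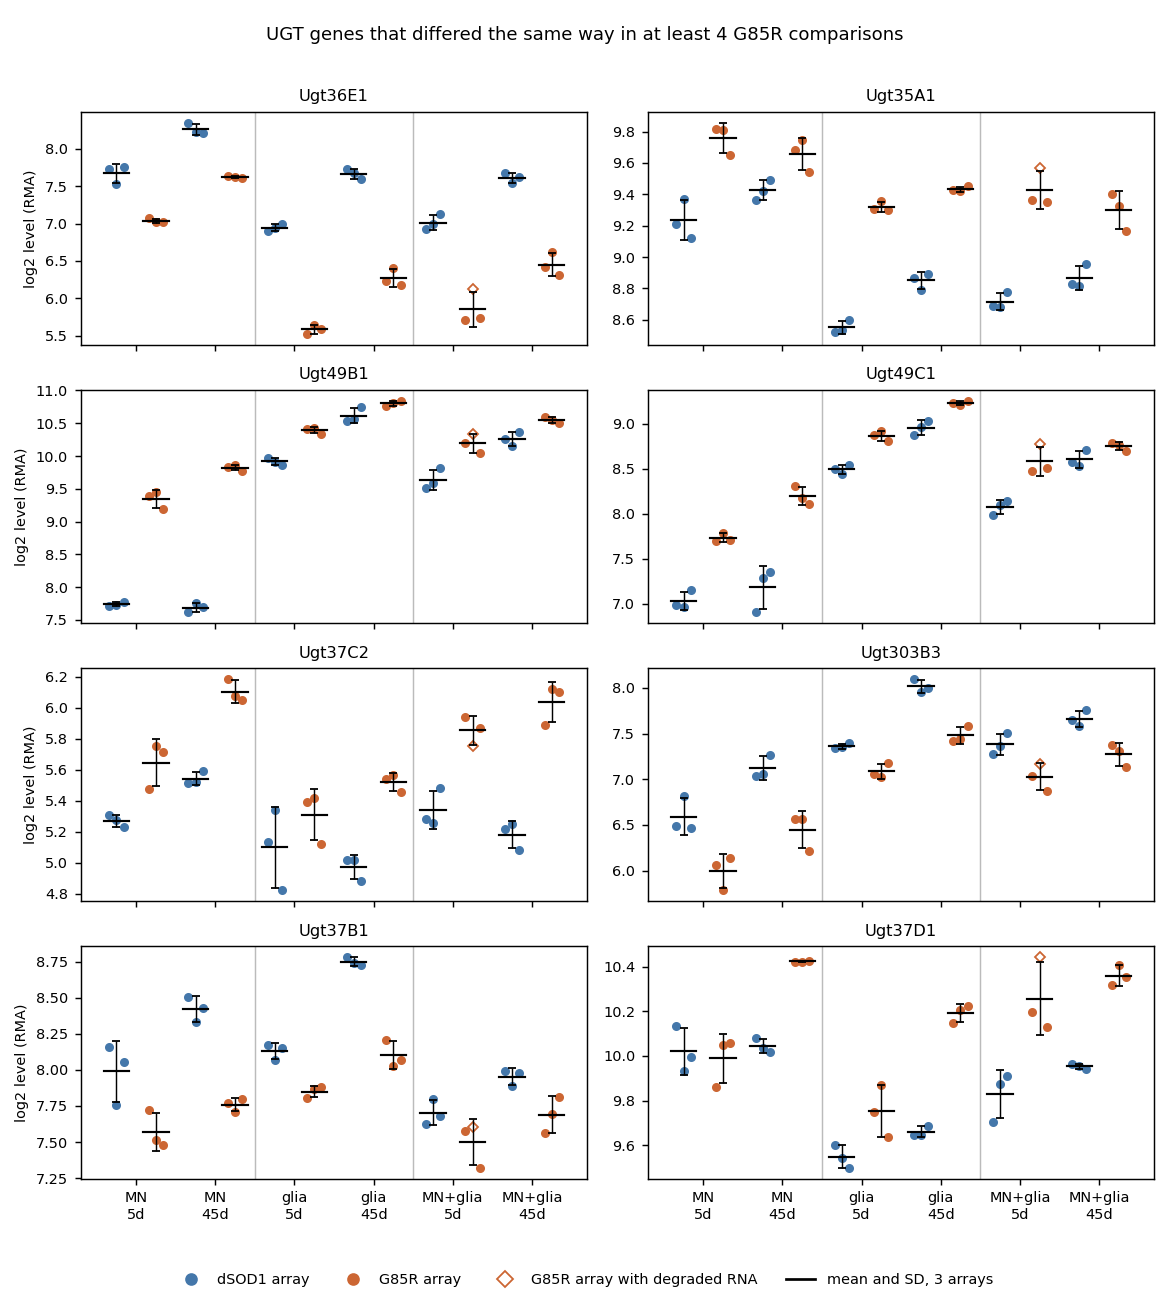
Log2 level (vertical axis, its own range per panel) of the 8 genes named at the top of each panel on each array, by driver and age (horizontal axis); blue points are dSOD1 arrays, orange points G85R arrays, the open diamond is the array with degraded RNA, and bars give mean and SD of 3 arrays. Ugt36E1, Ugt303B3 and Ugt37B1 stand lower and Ugt35A1, Ugt49B1 and Ugt49C1 higher in G85R flies, and the MN dSOD1 flies are far below all other groups for Ugt49B1. Ugt35B1, which also passed in the same direction in 4 G85R comparisons, is not drawn.

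Ugt37A2 and Ugt37A3, neighbours on 3R, were the UGT genes whose response to G85R turned direction. In glia at 5d Ugt37A2 stood at 7.04, 7.00 and 6.92 in dSOD1 flies and 6.54, 6.68 and 6.36 in G85R flies, a difference of -0.47 (limma adjusted p of 0.0086, SE 0.11), or -0.38 (adjusted p of 0.076) without G85R replicate 3. At 45d it stood at 6.69, 6.78 and 6.55 and 8.04, 8.23 and 8.20, a rise of 1.48 (adjusted p of 2.3e-11, SE 0.11). The groups did not overlap at either age, and the G85R flies were the lower group at 5d and the higher at 45d. The change with age of the difference was 1.95 (adjusted p of 7.7e-10, SE 0.16). In MN and MN+glia the differences of Ugt37A2 lay between -0.12 and 0.05 and none passed, with MN+glia at 5d at 0.02 without the degraded array. At 45d MN minus glia was -1.59 (adjusted p of 6.6e-08, SE 0.16) and MN+glia minus glia -1.60 (adjusted p of 1.3e-07, SE 0.16), so the rise of 45d glia flies differed from both other drivers.

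Ugt37A3 rose in glia at 45d too, from 5.73, 5.74 and 5.67 to 6.66, 6.71 and 6.82, a difference of 1.02 (adjusted p of 1.4e-08, SE 0.10). At 5d in glia the difference of 0.26 (adjusted p of 0.16) did not pass, and the change with age was 0.76 (adjusted p of 0.0029, SE 0.15). Unlike its neighbour it rose in MN at 5d, from 6.51, 6.63 and 6.46 to 6.95, 7.28 and 6.85, by 0.49 (adjusted p of 0.0021, SE 0.10). In MN+glia at 45d it fell, from 6.002, 6.25 and 6.04 to 5.68, 5.73 and 5.46, a difference of -0.48 (adjusted p of 0.0027, SE 0.10). At 5d in MN+glia the difference of -0.27 (adjusted p of 0.081, SE 0.10) did not pass with all arrays and was -0.41 (adjusted p of 0.0093, SE 0.10) without the degraded one. The difference was above 0 under each driver alone and below 0 with both drivers, at both ages. MN+glia minus MN was -0.76 (adjusted p of 0.0064) at 5d, -0.90 (adjusted p of 2.5e-04) without the degraded array, and -0.77 (adjusted p of 0.0022) at 45d, and MN+glia minus glia at 45d -1.49 (adjusted p of 1.3e-07).

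**Figure D5:**
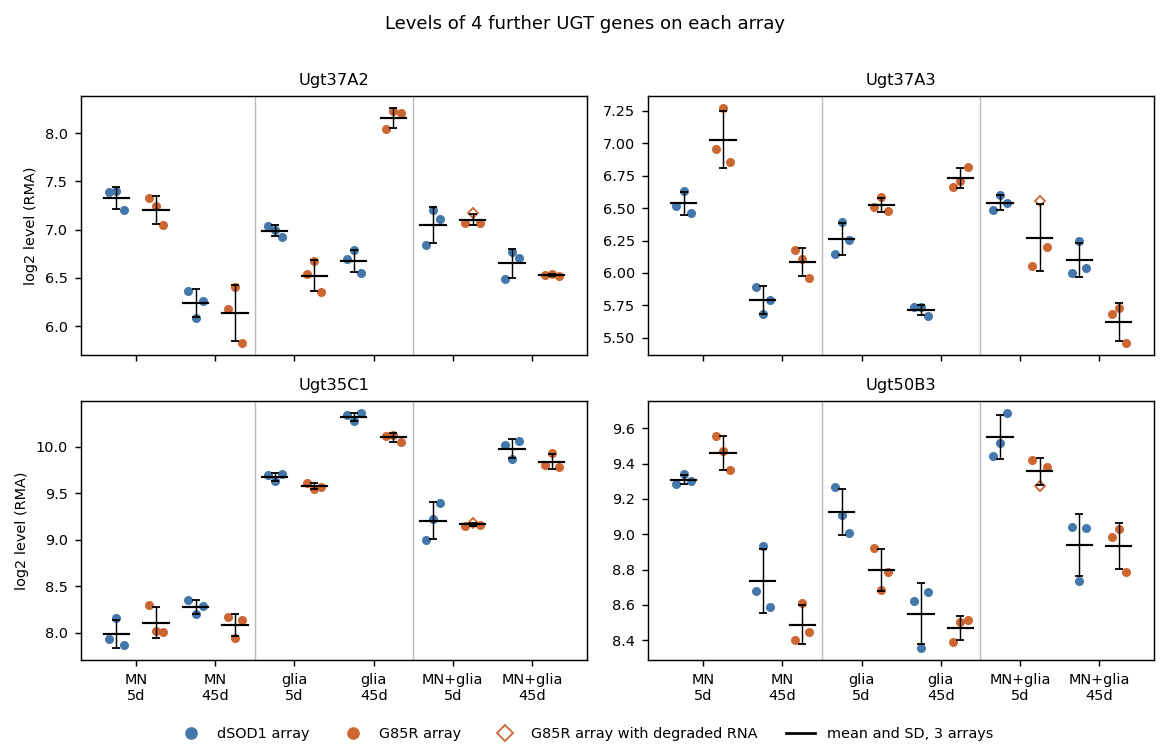
Log2 level (vertical axis, its own range per panel) of Ugt37A2, Ugt37A3, Ugt35C1 and Ugt50B3 on each array, by driver and age (horizontal axis), with symbols for dSOD1 arrays (blue), G85R arrays (orange), the array with degraded RNA (open diamond) and mean and SD of 3 arrays (bars). The 45d glia G85R arrays of Ugt37A2 stand at 8.04, 8.23 and 8.20, above every other array, and Ugt35C1 is lowest on all MN arrays.

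The other genes that passed in a G85R comparison did so with small differences. Ugt36A1, formerly Dot, a gene known from the fly's pericardial cells and lymph gland, rose by 0.32 (adjusted p of 0.0022) and 0.32 (adjusted p of 0.0014) in MN at 5d and 45d, the former lost in a fit on the compared arrays alone (adjusted p of 0.068). Its rise of 0.27 (adjusted p of 0.0071) in MN+glia at 5d was 0.19 (adjusted p of 0.095, SE 0.068) without the degraded array, not past the threshold. Ugt302C1 and Ugt317A1 passed only in MN+glia at 5d and only with that array, at 0.25 (adjusted p of 0.031) and 0.24 (adjusted p of 0.017) (without it 0.14 (adjusted p of 0.32, SE 0.075) and 0.24 (adjusted p of 0.057, SE 0.077)). Ugt316A1 rose by 0.20 (adjusted p of 0.034) in MN at 5d, a call lost without dSOD1 replicate 1 or 3 or G85R replicate 2 or 3 (0.16 to 0.19). Ugt50B3 fell in glia at 5d, from 9.27, 9.11 and 9.01 to 8.92, 8.69 and 8.79, a difference of -0.33 (adjusted p of 0.043, SE 0.099). That call was lost without dSOD1 replicate 1 or 2 or G85R replicate 2 or 3 (differences of -0.34 to -0.26, adjusted p over all alternatives 0.011 to 0.21). The 15 genes that passed in none of the 6 were Ugt301D1, Ugt302E1, Ugt302K1, Ugt303A1, Ugt303B1, Ugt303B2, Ugt305A1, Ugt307A1, Ugt35C1, Ugt35D1, Ugt35E1, Ugt37A1, Ugt37C1, Ugt37E1 and Ugt49B2. No difference that failed the test was larger than 0.3965 in size.

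In their response to G85R, between 0 and 6 of the 35 genes differed by driver or age. A single gene of the 35 is 2.86%. That is already above the share of all probe sets in each of these comparisons but the change with age in MN+glia with all arrays (3.86%). A share above that of all probe sets where any UGT gene passed was thus fixed by the size of the list. The change with age passed for 2 genes in MN (5.71%, against 1.49% of probe sets) and 2 in glia (5.71%, against 1.74%). In MN+glia 0 passed (against 3.86%), where limma at an unadjusted p under 0.05 gave 9. The adjusted count in MN+glia was again 0 without the degraded array (against 1.46%), with 2 at an unadjusted p under 0.05. MN and glia differed for 2 genes at 5d and 6 at 45d (5.71% and 17.1%, against 0.618% and 1.42% of probe sets). MN+glia and MN differed for 5 and 4 (14.3% and 11.4%, against 2.59% and 1.36%). MN+glia and glia differed for 0 and 2 (0% and 5.71%, against 0.218% and 0.453%), where limma at an unadjusted p under 0.05 gave 6 at 5d. Without the degraded array the adjusted 5d count was 4 for MN+glia against MN (11.4%, against 1.02%). For MN+glia against glia it was 1 (2.86%, against 0.144%), which was Ugt37A3 at -0.67 (adjusted p of 0.028, SE 0.14). No share of all probe sets stands beside the unadjusted counts, so they do not show more UGT genes than other genes. These comparisons share arrays with each other, so their counts are not independent.

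The 3 driver crosses differed in UGT levels in the dSOD1 flies. Of the members, 14 of the 35 differed between glia and MN at 5d (40%, against 16.4% of probe sets) and 16 at 45d (45.7%, against 20.3%). MN+glia and MN differed for 14 at 5d and 14 at 45d (40% each, against 22% and 13.2%). MN+glia and glia differed for 9 and 14 (25.7% and 40%, against 18.4% and 20.7%). Ugt49B1, Ugt35C1 and Ugt49C1 were over 2-fold higher in glia and in MN+glia than in MN flies at both ages. Ugt49B1 in glia exceeded MN by 2.18 (limma adjusted p of 9.8e-20, SE 0.077) at 5d and 2.93 (adjusted p of 2.9e-23, SE 0.077) at 45d, which is 7.62-fold. In MN+glia it exceeded MN by 1.90 and 2.57.

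Ugt35C1, formerly Ugt86Dd and known for a role in nicotine resistance of flies, stood at 7.93, 8.16 and 7.87 in MN, 9.69, 9.63 and 9.71 in glia and 9.001, 9.23 and 9.39 in MN+glia dSOD1 flies at 5d. The 3 sets did not overlap, and MN flies were the lowest. Glia exceeded MN by 1.69 (adjusted p of 1.1e-15, SE 0.085) at 5d and 2.04 (adjusted p of 4.8e-18, SE 0.085) at 45d, and MN+glia exceeded MN by 1.22 and 1.70. The gene passed in none of the 6 G85R comparisons, where its differences lay between -0.22 and 0.12. Lower in glia than in MN at 5d were Ugt304A1, at -0.74 (adjusted p of 1.0e-06, SE 0.096), and Ugt36E1, at -0.73 (adjusted p of 2.7e-07, SE 0.087). At 45d these differences were -0.64 and -0.59.

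No UGT gene differed 2-fold between MN+glia and glia dSOD1 flies. Against glia, MN+glia dSOD1 flies had less Ugt35C1, at -0.47 (adjusted p of 1.7e-04), and less Ugt37B1, at -0.43 (adjusted p of 6.0e-04), at 5d, and more Ugt50B3, at 0.42 (adjusted p of 0.0026), and Ugt303B1, at 0.38 (adjusted p of 0.0074). At 45d the largest differences were -0.80 (adjusted p of 3.6e-08, SE 0.086) for Ugt37B1 and -0.47 (adjusted p of 3.2e-07, SE 0.057) for Ugt35B1. The call of Ugt303B1 was lost without glia dSOD1 replicate 1, at 0.30 (adjusted p of 0.067). Markers of the midgut, a tissue with high detoxification activity in flies, also differed between crosses: the log2 of the summed level of 8 digestive enzyme genes was 16.03 to 16.07 in MN, 15.77 to 15.79 in glia and 15.94 to 15.96 in MN+glia dSOD1 flies at 5d. At that age 7 of the 8 were lower in glia than in MN (87.5%, against 16.4% of all probe sets). The same sum over 6 neuron markers was 9.04 to 9.36 on the arrays of glia crosses and 9.54 to 10.29 on those of MN and MN+glia crosses. The part of these tissue differences in the UGT results was not tested.

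Between 11 and 19 UGT genes passed the test with age. From 5d to 45d, 11 genes rose and 7 fell in MN dSOD1 flies (51.4%, against 45.3% of all probe sets, 26.1% upward and 19.2% downward). In glia dSOD1 flies 13 rose and 6 fell (54.3%, against 40.5%, 22.3% and 18.1%), and in MN+glia dSOD1 flies 11 rose and 8 fell (54.3%, against 38.3%, 20.6% and 17.6%). In G85R flies 10 rose and 9 fell in MN (54.3%, against 39.2%, 21.8% and 17.4%) and 15 rose and 4 fell in glia (54.3%, against 34.2%, 19.3% and 14.9%). In MN+glia G85R flies 6 rose and 5 fell (31.4%, against 31.7%, 16.5% and 15.2%), or 11 and 7 without the degraded array (51.4%, against 31%). Ugt36E1, Ugt36A1 and Ugt316A1 rose and Ugt35B1, Ugt36D1 and Ugt50B3 fell with age in all 6 comparisons (17.1% of the genes, against 17.5% of probe sets). That share was close to the one of all probe sets, as were those of MN dSOD1 flies and, with all arrays, of MN+glia G85R flies. In all, 28 genes passed in at least 1 ageing comparison (80%, against 64.6%).

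Ugt36E1 rose with age by between 0.59 and 0.72, opposite in sign to its difference with G85R. In glia dSOD1 flies it went from 6.91, 6.94 and 7.00 to 7.73, 7.68 and 7.60, a rise of 0.72 (limma adjusted p of 4.5e-08, SE 0.087). Ugt35B1 went the other way, higher with G85R in glia and MN+glia and lower with age, with differences of -0.48 to -0.17. Without the degraded array the 6 genes kept their direction and their call in MN+glia G85R flies, where Ugt36E1 was then at 0.73 in place of 0.60 and Ugt35B1 at -0.40 in place of -0.48. Ugt50B3 fell in MN G85R flies from 9.56, 9.47 and 9.36 to 8.40, 8.61 and 8.44, a difference of -0.98 (adjusted p of 2.4e-09, SE 0.099), and the differences in dSOD1 flies were -0.58 (MN), -0.58 (glia) and -0.61 (MN+glia). Ugt36D1, next to Ugt36E1, fell by 0.40 (adjusted p of 1.0e-06, SE 0.056) in glia G85R flies, so these neighbours moved in opposite directions with age. The difference of Ugt50B3 in glia G85R flies was -0.33 (adjusted p of 0.0095), or -0.27 (adjusted p of 0.067) without 5d replicate 1. Ugt316A1 rose by 0.53 (adjusted p of 9.1e-09) in MN dSOD1 flies. Ages were compared on arrays that also enter the transgene comparisons.

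Ugt37A2 had the widest range of differences with age. It fell with age in MN dSOD1 flies, from 7.39, 7.40 and 7.20 to 6.37, 6.09 and 6.26, a difference of -1.09 (adjusted p of 2.1e-09, SE 0.11), and in MN G85R flies the difference was -1.07 (adjusted p of 4.7e-09, SE 0.11). In glia G85R flies alone it rose, from 6.54, 6.68 and 6.36 to 8.04, 8.23 and 8.20, by 1.63 (adjusted p of 1.2e-12, SE 0.11). In MN+glia G85R flies it was -0.57 (adjusted p of 1.7e-04, SE 0.11), or -0.54 without the degraded array. Ugt37A3 fell with age in 5 of the 6 comparisons, with differences of -0.75 (adjusted p of 5.3e-07) in MN, -0.55 (adjusted p of 5.7e-05) in glia and -0.44 (adjusted p of 8.0e-04) in MN+glia dSOD1 flies, -0.94 (adjusted p of 1.1e-08) in MN G85R flies and -0.65 (adjusted p of 1.1e-05) in MN+glia G85R flies (-0.51 without the degraded array). The exception was again glia G85R, at 0.20 (adjusted p of 0.13).

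Ugt49B1 rose with age in 5 of the 6 comparisons. The rise was 0.70 (adjusted p of 7.4e-09) in glia dSOD1, 0.62 (adjusted p of 8.4e-08) in MN+glia dSOD1 and 0.48 (adjusted p of 7.1e-06) in MN G85R flies. In MN dSOD1 flies, at 7.72, 7.72 and 7.78 and 7.62, 7.75 and 7.69, the difference was -0.05 (adjusted p of 0.62) and did not pass. Ugt35C1 rose by 0.77 (adjusted p of 8.6e-09) in MN+glia dSOD1 and 0.67 (adjusted p of 2.7e-07) in MN+glia G85R flies (0.68 without the degraded array). Tissue markers moved with age as well. On dSOD1 arrays the log2 of the summed level of 8 testis genes lay between 14.08 and 14.27 at 5d and between 13.32 and 13.72 at 45d. That of 4 accessory gland genes lay between 14.46 and 14.69 at 5d and between 13.87 and 14.1 at 45d. For 6 Malpighian tubule genes the range was 11.52 to 11.69 at 5d and 11.77 to 11.97 at 45d. Whether such shifts in tissue share moved the UGT genes was not tested. Of the 35 genes 6 passed in no comparison of transgene or age: Ugt307A1, Ugt35D1, Ugt35E1, Ugt37A1, Ugt37C1 and Ugt37E1, all with a mean under 5.

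Genes that supply or use the same chemistry were read from lists of related genes. UDP-glucose itself is made by UGP and turned into UDP-glucuronic acid by sgl, and neither passed in any of the 6 G85R comparisons (sgl between -0.17 and -0.02, UGP between -0.34 and 0.34, where the highest value, in MN+glia at 5d, was -0.02 without the degraded array). With all arrays the SE was 0.087 for sgl and 0.19 for UGP, so the test does not show that UGP was unchanged. Of the 14 measured genes for UDP-sugar supply and transport, 1 passed in MN at 5d (7.14%, against 7.99% of all probe sets), 4 in MN at 45d (28.6%, against 10%), 3 in glia at 5d (21.4%, against 5.63%) and 5 in glia at 45d (35.7%, against 9.97%). In MN+glia 5 passed at 5d (35.7%, against 13.9%), or 2 without the degraded array (14.3%, against 6.51%), and 1 at 45d (7.14%, against 7.03%). The share in MN at 5d and in MN+glia at 45d was thus close to that of all probe sets. Galt, which makes UDP-galactose from UDP-glucose in galactose use, fell in 4 comparisons, with differences of -0.30 (adjusted p of 0.0053, SE 0.073) in MN at 45d, -0.33 (adjusted p of 0.0035, SE 0.073) in glia at 5d, -0.31 (adjusted p of 0.0038, SE 0.073) in glia at 45d and -0.25 (adjusted p of 0.034, SE 0.073) in MN+glia at 45d. In MN+glia at 5d Galt was at -0.12 and did not pass, and at -0.23 (adjusted p of 0.032) without the degraded array. Hex-C, a hexokinase, fell in 3, with differences of -0.39 in MN at 45d, -0.39 in glia at 5d and -0.32 in glia at 45d, and was at -0.17 in MN+glia at 5d with all arrays (not past the threshold) and -0.29 (adjusted p of 0.016) without the degraded one. Gfat1, which starts the hexosamine branch toward UDP-sugars, rose by 0.18 in MN and 0.24 in glia at 45d.

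Other conjugating enzymes moved in both directions. Of the 35 glutathione transferases 4 rose and 3 fell in MN at 5d (20%, against 7.99% of all probe sets) and 4 rose and 2 fell in MN at 45d (17.1%, against 10%). In glia 3 rose at 5d (8.57%, against 5.63%), and 2 rose and 12 fell at 45d (40%, against 9.97%). In MN+glia 6 rose at 5d (17.1%, against 13.9%), or 3 without the degraded array (8.57%, against 6.51%), and 2 rose and 5 fell at 45d (20%, against 7.03%). At 5d the shares in glia and MN+glia were near those of all probe sets. GstD2 rose at 5d by 0.58 (adjusted p of 1.3e-04, SE 0.098) in MN, 1.29 (adjusted p of 3.9e-11, SE 0.098) in glia and 1.13 (adjusted p of 8.2e-10, SE 0.098) in MN+glia, or 0.98 (adjusted p of 7.1e-09) without the degraded array. At 45d it rose by 0.44 in MN and did not pass in glia or MN+glia. GstE10 fell by 0.64 (adjusted p of 2.5e-07, SE 0.074) in MN+glia and by 0.32 in glia at 45d. GstE7 fell by 0.62 in glia at 45d and rose by 0.49 in MN+glia at 5d, a call lost without the degraded array, at 0.22 (adjusted p of 0.31). Of 7 genes for sulfotransferases and the supply of their sulfate donor at most 1 passed in any comparison. That was 14.3% under every driver at 45d, where 7.03% to 10% of all probe sets passed. At 5d 0 passed, against 5.63% to 13.9% of all probe sets. A single gene of the 7 is already 14.3%, so these counts do not show more calls here than among other genes. St4 rose by 0.32 in MN and 0.36 in MN+glia at 45d, and St1 fell by 0.39 in glia at 45d. In glia at 45d most glutathione transferases that passed were thus lower, while 7 of the 10 UGT genes that passed were higher. The lists were not tested against each other.

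Upstream, of 83 cytochrome P450 genes between 8 and 13 rose and between 7 and 20 fell per comparison with all arrays. The share that passed was 19.3% in MN at 5d (against 7.99% of all probe sets), 33.7% in MN at 45d (against 10%), 26.5% in glia at 5d (against 5.63%) and 38.6% in glia at 45d (against 9.97%). In MN+glia it was 25.3% at 5d (against 13.9%), or 24.1% without the degraded array (against 6.51%), and 26.5% at 45d (against 7.03%). The P450 share was above that of all probe sets in each. Cyp4p2 fell in all 6, with differences from -0.83 in MN+glia at 45d to -1.51 in MN at 45d. Cyp28d1 fell in glia, with differences of -0.72 at 5d and -0.69 at 45d, and in MN at 45d, at -0.41. In MN+glia at 5d it was at -0.20, not past the threshold, and at -0.31 (adjusted p of 0.0026) without the degraded array. Cyp49a1 rose in all 6, from 0.33 in MN+glia at 5d, 0.26 (adjusted p of 0.032) without the degraded array, to 0.67 in MN at 5d. Of 11 carboxylesterases between 1 and 3 passed per comparison (9.09% to 27.3%), with rises and falls in each but MN+glia at 5d. The share was above that of all probe sets in each but MN+glia at 5d (9.09%, against 13.9%). With the degraded array omitted it was 18.2% there, against 6.51%. Among them alpha-Est2 rose in all 6, between 0.38 in MN at 45d and 2.88 in glia at 5d. In contrast alpha-Est7 was lower in 5, from -0.29 in MN+glia at 45d to -0.45 in glia at 45d. Its difference in MN+glia at 5d was -0.13, not past the threshold, or -0.27 (adjusted p of 0.020) with that omission. Downstream, of 13 exporters of the ABC family, which carry conjugates out of cells, 2 passed in MN at 5d, in glia at 45d and in MN+glia at both ages (15.4% each), 3 in glia at 5d (23.1%) and 4 in MN at 45d (30.8%), where the shares of all probe sets were those given above for each comparison, and the 15.4% of MN+glia at 5d stood near its 13.9%. Mdr50 fell in 5 comparisons, with differences of -0.90 (adjusted p of 8.0e-09, SE 0.088) in MN at 45d and -0.65 (adjusted p of 4.4e-06, SE 0.088) in glia at 5d as the largest, -0.44 in MN at 5d, -0.52 in MN+glia at 5d (-0.61 (adjusted p of 2.7e-05) without the degraded array) and -0.34 in MN+glia at 45d. MRP rose by 0.35 and 0.36 in MN. Of 13 regulators of detoxification genes at most 2 passed in any comparison, 2 in MN at 5d (15.4%, against 7.99% of all probe sets). The gene maf-S, a partner of the stress factor cnc, fell in 4, with differences of -0.20 in MN at 5d, -0.31 in MN at 45d, -0.20 in glia at 45d and -0.22 in MN+glia at 5d, the last a call lost without the degraded array, at -0.16 (adjusted p of 0.11). Keap1, the inhibitor of cnc, rose by 0.29 in MN at 5d, and Hr96, a nuclear receptor for foreign compounds, fell by 0.27 in MN+glia at 45d.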

How the data were processed

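Total RNA from pools of 40 whole male flies was hybridised to Affymetrix Drosophila Genome 2.0 arrays, and the deposited series table holds log2 levels that the authors made by RMA (background correction, quantile normalization and probe summary) with default settings. Whether all arrays entered 1 normalization is not given in the sources used here. Of 18952 probe sets, 183 controls were left out. Of the 18769 fly probe sets, 13647 carried 1 gene symbol, 402 several and 4720 none, by the platform annotation, and 13544 were brought to current symbols through their gene ID. Each gene was read by its single-gene probe set of highest mean over all arrays, and each UGT gene had 1. A few genes are not reported here. Chromosome arms and neighbours came from the RefSeq annotation.

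Differences were fitted with limma (version 3.58.1, R 4.3.3), with 1 mean per group over all 36 arrays, lmFit and eBayes, and Benjamini-Hochberg adjustment over all fly probe sets within each comparison at 0.05, in 27 comparisons. The code was tested on simulated data. Alternatives were array weights, quantile normalization of all arrays, leaving out dim probe sets, a variance trend, a replicate block, a fit on the arrays compared alone, 1 probe set per gene, and leaving out each array. The methods name an array of M1B G85R flies at 5d as left out because its RNA was degraded, but in these files the array with degraded RNA carries the MN+glia label, and it was kept. The members, lists and tests were chosen with earlier results of these data known. Given in full were the 3 largest UGT rises and falls per G85R comparison and the 2 largest each way in other comparisons. Also given in full were genes that passed in the same direction in at least 4 of 6 G85R comparisons, and the 3 highest and lowest genes. From each related list up to 2 genes each way per comparison were drawn, and only some of these are named above. UGP, sgl and the remaining UGT genes were named to account for the list, after their values were seen.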

Additional observations from a re-analysis of the deposited data

Results flagged for a closer look

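A total of 23 differences of the G85R effect between ages or drivers, over 7 UGT genes, passed the limma test of the difference itself (adjusted p at most 0.05, SE in parentheses) and are given as values. With age the effect of G85R changed by 0.41 (0.10) for Ugt37D1 and 0.53 (0.11) for Ugt49B1 in MN, and by 1.95 (0.16) for Ugt37A2 and 0.76 (0.15) for Ugt37A3 in glia. For Ugt37A2 the effect was negative at 5d and positive at 45d.

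Ugt49B1 differed most between drivers: MN minus glia was 1.13 (0.11) at 5d and 1.95 (0.11) at 45d, and MN+glia minus MN -1.05 (0.11) and -1.84 (0.11). Ugt49C1 gave 0.74 (0.12) and -0.87 (0.12) in these contrasts at 45d. For Ugt36E1, MN minus glia was 0.73 (0.12) at 5d and 0.76 (0.12) at 45d, and MN+glia minus MN -0.52 (0.12) and -0.52 (0.12). Without the degraded array the 5d value of MN+glia minus MN was -0.66 for Ugt36E1 and -1.12 for Ugt49B1.

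Ugt37A3 gave -0.76 (0.15) at 5d and -0.77 (0.15) at 45d for MN+glia minus MN, -0.72 (0.15) for MN minus glia at 45d and -1.49 (0.15) for MN+glia minus glia at 45d. Ugt37A2 gave -1.59 (0.16) for MN minus glia and -1.60 (0.16) for MN+glia minus glia at 45d. Smaller differences were those of Ugt35B1, 0.34 (0.081) for MN+glia minus MN at 5d and -0.31 (0.081) for MN minus glia at 45d, and of Ugt37D1, 0.46 (0.10) for MN+glia minus MN at 5d. Without the degraded array Ugt35B1 in the first of these was 0.26 (adjusted p of 0.078, SE 0.074) and did not pass, while Ugt37D1 was 0.37 (adjusted p of 0.048) and Ugt37A3 -0.90 (adjusted p of 2.5e-04) for MN+glia minus MN at 5d. No group had more than 3 arrays, so no array was tested as standing apart from its group.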

How the results depend on the processing

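Counts of UGT genes that passed are given here under other settings, with the count of the report first. With array weights they went from 10 to 16 in MN at 45d, from 10 to 17 in glia at 45d, from 2 to 5 for the change of the G85R difference with age in MN and from 2 to 7 in glia, and from 11 to 17 for age in MN+glia G85R flies. With these weights the difference of the G85R effect between MN+glia and glia went from 0 to 1 at 5d and from 2 to 4 at 45d, that between MN+glia and MN at 45d from 4 to 8, and the dSOD1 comparison of MN+glia with glia at 5d from 9 to 16. A fit on the arrays of the groups compared alone gave 6 in place of 13 in MN+glia at 5d, 1 in place of 2 for the change with age in MN and 4 in place of 2 in glia, 1 in place of 5 for MN+glia against MN at 5d, and 9 in place of 14 for their dSOD1 flies at 5d. For the change with age in MN+glia, quantile normalization gave 2 and the filter on dim probe sets, which kept 21 members, gave 1, in place of 0. The cause of these shifts was not tested. All other counts under these settings, and all 27 under a variance trend, 1 probe set per gene and a replicate block, stayed within 1.5 times. No value could be had from a second probe set, since each UGT gene has 1.

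Leaving out each array in turn gave 8 to 10 calls in MN at 5d and 8 to 10 at 45d, 7 to 9 in glia at 5d and 9 to 10 at 45d, 10 to 13 in MN+glia at 5d and 8 to 10 at 45d. The change with age gave 1 to 2 in MN, where the second gene was Ugt37D1, 2 in glia and 0 to 1 in MN+glia, with 1 without its G85R 5d replicate 1. Differences between drivers ranged over 2 to 2 (MN against glia), 2 to 5 (MN+glia against MN, 2 without MN G85R replicate 1 and 3 without MN+glia dSOD1 replicate 3) and 0 to 1 (MN+glia against glia, 1 without the degraded array) at 5d, and over 5 to 6, 3 to 4 and 2 to 2 at 45d. For age the ranges were 16 to 19, 17 to 20 and 13 to 20 in MN, glia and MN+glia dSOD1 flies, and 17 to 19, 14 to 20 and 11 to 18 in G85R flies, the last being 18 without the degraded array. For dSOD1 crosses they were 10 to 12, 10 to 13 and 7 to 11 at 5d and 15 to 16, 12 to 14 and 10 to 13 at 45d, in the order glia against MN, MN+glia against MN, and MN+glia against glia. The difference of Ugt37D1 in MN at 5d, not past the threshold, turned from -0.03 to 0.025 without dSOD1 replicate 1 and to 0.031 without G85R replicate 1 (over all 6 arrays left out in turn, -0.077 to 0.031).

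Of 133 called results for single UGT genes, 32 were lost under at least 1 alternative. Leaving out 1 array lost 28 in at least 1 case, the fit on the compared arrays alone 20, quantile normalization 5, array weights 3, a variance trend 1, the dim filter 0 of 125 and 1 probe set per gene 0. The 20 lost in the fit on the compared arrays alone were 6 rises in MN+glia at 5d (Ugt302C1, Ugt304A1, Ugt317A1, Ugt36A1, Ugt36D1 and Ugt37D1) and the fall of Ugt303B3 there; Ugt37B1, Ugt316A1 and Ugt36A1 in MN at 5d; Ugt35A1 and Ugt36F1 in MN at 45d; Ugt49B1 and Ugt304A1 in MN+glia at 45d; the change with age of Ugt37D1 in MN; and between drivers Ugt37D1, Ugt35B1, Ugt37A3 and Ugt36E1 for MN+glia minus MN at 5d and Ugt35B1 for MN minus glia at 45d. Lost without 1 array and not named so above were 2 dSOD1 differences of MN+glia from glia at 45d, Ugt50B3 without glia replicate 2 and Ugt37A3 without MN+glia replicate 2 (adjusted p of 0.060 and 0.062). Groups share replicate numbers, and the deviations of same-numbered arrays correlated above 0.1 in 4 of 18 pairs (range -0.302 to 0.208). Each pair held a G85R and a dSOD1 array of the same driver and age. With 3 arrays per group, and no pairs across drivers or ages, these correlations cannot settle whether the numbers pair the arrays. With the replicate block, 10 UGT genes passed in MN at 5d, as without it, and 2 calls were lost, the fall of Ugt50B3 in glia at 5d and the rise of Ugt36F1 in MN at 45d.

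The 3 arrays per group limit precision, and the smallest difference called with G85R was 0.190 in size (Ugt36D1 in MN+glia at 5d), or 0.197 without the degraded array, on which that call rests (Ugt316A1 in MN at 5d). The 10 genes with a mean under 5 lie near the floor of the array. Cross-hybridisation between close paralogs was not tested.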
